A study of Mus musculus with 6 samples.

Results

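Hemidesmosomes anchor basal epithelial cells to the basement membrane. Laminin-332, a secreted trimer, is laid down under the cell and bound by the integrins α6β4 and α3β1. On the inner face the plakins BPAG1, encoded by Dst, and plectin, encoded by Plec, link α6β4 and the transmembrane collagen XVII to the keratin filaments, and the tetraspanin CD151 associates with the laminin-binding integrins. In the mammary gland these contacts are made mainly by the myoepithelial cells, the contractile outer layer of the ducts that faces the basement membrane.

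The genes described are the 9 of this complex chosen by name and role: the laminin α3 and β3 chains (Lama3, Lamb3), collagen XVII (Col17a1), the integrin subunits α3, α6 and β4 (Itga3, Itga6, Itgb4), the plakins Dst and Plec, and Cd151. They are 9 of the 34590 genes in the count table, and all 9 were among the 17345 genes with enough reads to be tested. The rule takes them by role, with no threshold on a measured value, but they were chosen with earlier results of these data known.

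RNA-seq was done on 6 mouse mammary libraries, 3 with WT.EGFP+ epithelium and 3 with Adamts18-/-.EGFP+ epithelium. Each pair came from the left and right gland number 4 of 1 host, so there were 3 mice with 1 gland of each genotype. Adamts18 encodes a secreted metalloprotease, and the mutant allele lacks the exons for its zinc-binding catalytic site. The study profiled these glands to ask how a changed extracellular matrix acts on the signaling of stem cells. The hosts, shared by both groups, were WT females whose own epithelium had been cleared from the fat pad, grafted in the study's procedure at 3 weeks of age. Host stroma was therefore WT on both sides, and the EGFP label, from an actin promoter transgene that is not restricted to epithelium, was carried by both kinds of graft. All WT grafts were on the left and all Adamts18-/- grafts on the right, so genotype and side cannot be told apart. The age at harvest was not given in the sources used here.

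Depth was high and even, from 53875123 to 71595924 counts per library, and the scarcest of the 9 genes had CPM values (a gene's counts relative to the TMM-scaled library total) above 30 in every gland. Adamts18 itself was at 3.61, 9.92 and 6.80 CPM in the WT gland of mouse 1, 2 and 3 and at 2.75, 4.87 and 3.29 CPM in their Adamts18-/- glands, lower in all 3 mice. Reads of WT host stroma and of exons outside the deletion can both remain in this count. The labels name sorted GFP+ mammary epithelial cells, yet the 7 adipocyte markers summed to between 7270 and 16700 CPM per library and the 7 fibroblast markers to between 8830 and 12200 CPM, above the 20 pan-epithelial markers at 1270 to 2530 CPM and the 10 myoepithelial markers at 995 to 2300 CPM. Transcripts of stromal cell types were thus abundant in all 6 libraries. In such bulk RNA, fewer cells of a type and less RNA per cell cannot be told apart. The glands of mouse 3 stood apart by their lymphocyte markers, which summed to 352 CPM in the WT gland and 1160 CPM in the Adamts18-/- gland against 104 to 123 CPM in the other 4.

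The study's thresholds were used: a gene was called lower at a fold change under 0.8, or higher at a fold change over the inverse of 0.8, with an unadjusted p below 0.05. Of the 9 genes, 4 were called lower in the Adamts18-/- glands and 0 higher. Those 4 were Lama3, Lamb3, Col17a1 and Itga3, with fold changes of 0.66 to 0.77. They were 4 with the libraries scaled over all genes and the glands paired by mouse, and 0 without the pairing or with the libraries scaled to epithelial markers. Across all genes tested 1.84% were called lower and 1.17% higher. Because the 9 genes were chosen with earlier results of these data known, their count beside these shares is a description. None of the 9 passed an adjusted p below 0.05 in edgeR's quasi-likelihood fit, where p-values were adjusted by Benjamini-Hochberg over all genes, nor did any other gene, although 3.86% of all genes had an unadjusted p below 0.05. Without mouse 3, 268 genes passed an adjusted p below 0.05 by edgeR, none of them among the 9. By DESeq2 0.409% of genes passed an adjusted p below 0.05. Lama3 (adjusted p = 0.00601), Col17a1 (0.0169) and Itga3 (0.0414) were among them. The comparison was made within each host. Mouse took 46.3% to 82.6% of the variance of these 9 genes on the log2 scale and genotype 1.7% to 46.8%. Over all genes tested the median share was 67.3% for mouse and 5.98% for genotype. Separate donors were used for the 3 experiments, so a pair also differs from the next by its donor.

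**Figure D1:**
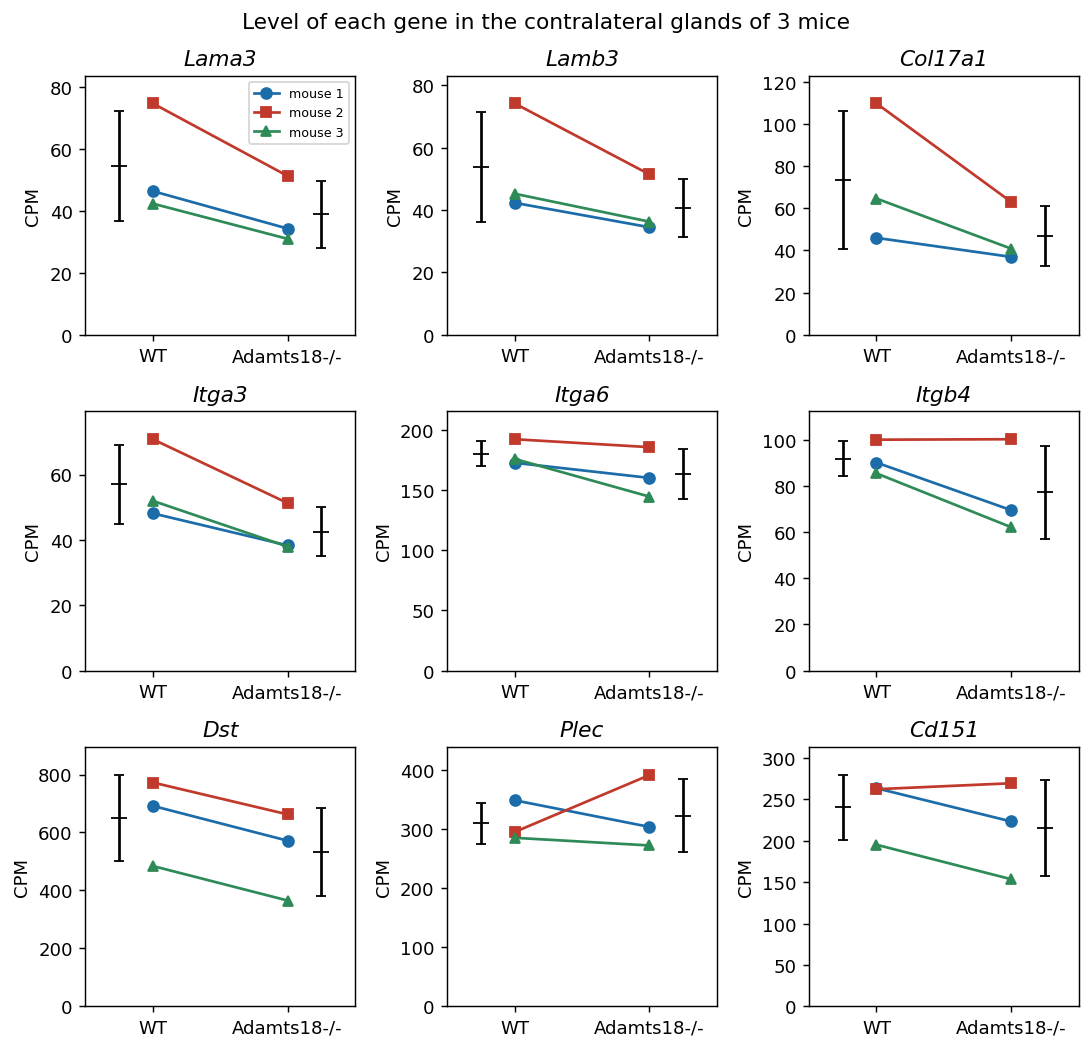
Level in CPM of each of the 9 genes in the WT and Adamts18-/- gland of 3 mice, with a line joining the glands of 1 mouse and black bars for the group mean ± SD (n = 3). Lines slope down in all 3 mice for Lama3, Lamb3, Col17a1, Itga3, Itga6 and Dst, and the red line of mouse 2 is flat or rises for Itgb4, Plec and Cd151.

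Sequences near the start sites are shown for the genes that were called lower and had a match to a motif searched for. RefSeq windows for GRCm38.p6, reaching from 250 bases before the start to 50 after it, were searched for 5 of the 9 genes (Dst, Lamb3, Cd151, Itga3 and Col17a1) as 9 windows. No window was searched for the other genes, among them Lama3, which was also called lower. The motifs searched were 4, read on both strands: AP-1 (TGANTCA), TEAD (GGAATG), the p53 family half-site bound by p63, the master factor of basal epithelium, and the TATA box (TATAAA). The AP-1 letters take any base at N, so they are looser than the AP-1 consensus, which has C or G there. The 3 windows below run 5′ to 3′ on the strand of the gene, from 250 bases before the start through the first 25 transcribed bases, and capitals mark the matches. The Col17a1 window (chr19:47692018-47692292, minus strand) held TATA letters at -140 to -135 and at -91 to -86 and a p53 family half-site at 16 to 25, counted with 1 as the first transcribed base. The second Lamb3 window (chr1:193301993-193302267, plus strand) held a TEAD match in reverse orientation at -167 to -162. The downstream Itga3 window (chr11:95069174-95069448, minus strand) held a match to the loose AP-1 letters at 13 to 19. Its middle base is A, so it is not a consensus AP-1 site.
Col17a1: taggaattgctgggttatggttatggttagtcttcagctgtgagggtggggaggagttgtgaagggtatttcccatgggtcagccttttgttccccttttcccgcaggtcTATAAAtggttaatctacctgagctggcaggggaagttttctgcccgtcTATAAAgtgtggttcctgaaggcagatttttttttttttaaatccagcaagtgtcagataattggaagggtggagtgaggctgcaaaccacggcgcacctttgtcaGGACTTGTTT
Lamb3: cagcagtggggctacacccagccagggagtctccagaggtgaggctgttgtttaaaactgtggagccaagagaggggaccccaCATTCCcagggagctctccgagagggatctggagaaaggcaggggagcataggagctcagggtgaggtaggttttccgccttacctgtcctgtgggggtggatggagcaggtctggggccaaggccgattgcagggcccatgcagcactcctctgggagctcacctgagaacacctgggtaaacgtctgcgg
Itga3: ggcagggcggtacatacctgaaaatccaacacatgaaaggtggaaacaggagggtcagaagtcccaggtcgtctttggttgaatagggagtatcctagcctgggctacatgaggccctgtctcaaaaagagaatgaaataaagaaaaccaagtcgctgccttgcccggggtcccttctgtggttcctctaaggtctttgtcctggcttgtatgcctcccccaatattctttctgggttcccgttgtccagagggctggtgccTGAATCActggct
Of the other windows, 1 of Cd151 held a p53 family half-site at -50 to -41, and the Dst windows, the first Lamb3 window, the first Itga3 window and the second Cd151 window held none of the 4 motifs. Among 32851 mouse windows of the same length, 7.81% held the AP-1 letters, 14.7% the TEAD letters, 8.36% the p53 family half-site and 13.6% the TATA letters. A match is a string of letters and not a shown binding site.

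The laminin chains come first in the order of assembly outside the cell. Lama3, whose product carries the domain that integrins bind, was at 46.4, 74.7 and 42.4 CPM in the WT gland of mouse 1, 2 and 3. In the Adamts18-/- glands it was at 34.3, 51.3 and 31.0 CPM. Within each mouse the Adamts18-/- gland was the lower one, by similar log2 differences of -0.44, -0.54 and -0.45. The Adamts18-/- gland of mouse 2 still exceeded the WT glands of mice 1 and 3, so the groups overlapped. The fitted log2 fold change was -0.48 (SE 0.07, fold change 0.718, adjusted p = 0.987 by edgeR).

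Lamb3, the β chain of the same trimer, was at 42.3, 74.2 and 45.2 CPM in the WT glands and at 34.5, 51.4 and 36.2 CPM in the Adamts18-/- glands. The order of the mice was nearly that of Lama3, with mouse 2 highest on both sides, and the groups overlapped in the same way. The log2 differences were -0.30, -0.53 and -0.32, and the fitted value was -0.38 (SE 0.08, fold change 0.768, adjusted p = 0.987 by edgeR). Mouse 2 gave the largest of the 3 differences. Without mouse 2 the fitted value was -0.31, and Lamb3 no longer passed the fold threshold.

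The counts of both chains were close to equal, but Lama3 is the longer gene in exon length. Per kilobase of exon the mean log2 ratio of Lama3 to Lamb3 in WT was -0.68, so their levels were not equal by that measure. The log2 ratio of Lama3 to Lamb3 counts was 0.02 ± 0.11 (SD, n = 3) in WT and -0.08 ± 0.13 in Adamts18-/- glands. Within mice it shifted by -0.14, -0.01 and -0.13, a mean of -0.10 ± 0.07 (SD). With 3 pairs an exact permutation test cannot go below p = 0.25, so shifts in ratios are given without a test.

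Col17a1 encodes collagen XVII (BP180), the transmembrane collagen of the plaque. It was at 45.9, 110 and 64.6 CPM in the WT glands and at 36.9, 63.0 and 40.8 CPM in the Adamts18-/- glands. The WT gland of mouse 2 was the highest of the 6 and the Adamts18-/- gland of mouse 1 the lowest. Differences within mice were the most uneven of the 4 called genes, at -0.32, -0.80 and -0.66 on the log2 scale. The fitted log2 fold change of -0.59 (SE 0.11, fold change 0.662, adjusted p = 0.987 by edgeR) was the largest among the 9 genes.

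Itga3 encodes the α3 subunit, which pairs with β1 and binds laminin-332 outside hemidesmosomes. It was at 48.1, 70.8 and 51.9 CPM in the WT glands and at 38.3, 51.2 and 37.9 CPM in the Adamts18-/- glands. Only the Adamts18-/- gland of mouse 2 reached into the WT range, above the WT gland of mouse 1. The log2 differences were -0.33, -0.47 and -0.45, with a fitted value of -0.42 (SE 0.07, fold change 0.749, adjusted p = 0.987 by edgeR). Genotype took 46.8% of its variance, the highest share of the 9.

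Itga6 encodes the α6 subunit, which pairs with β4 in hemidesmosomes and with β1 elsewhere. It was at 173, 193 and 176 CPM in the WT glands and at 160, 186 and 145 CPM in the Adamts18-/- glands. Each Adamts18-/- gland was below its WT partner, by log2 differences of only -0.11, -0.05 and -0.28. The fitted value of -0.15 (SE 0.08, unadjusted p above 0.05 by edgeR) did not pass the fold threshold either.

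Itgb4 encodes β4, the subunit found only with α6 and the one whose long tail holds the plakins. It was at 90.2, 100 and 85.5 CPM in the WT glands and at 69.5, 100 and 62.1 CPM in the Adamts18-/- glands. Mice 1 and 3 showed lower Adamts18-/- glands, with log2 differences of -0.38 and -0.46, while the glands of mouse 2 were equal to within 0.01 on the log2 scale. The fitted value was -0.28 (SE 0.11, unadjusted p above 0.05 by edgeR). Without mouse 2 it was -0.42 and Itgb4 was called lower. In the study's own analysis of this RNA-seq, Itgb4 and Itga3 were altered by unadjusted p but not by adjusted p. By qRT-PCR at puberty the study reported both as lower in the mutants.

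The log2 ratio of Itga6 to Itgb4 counts was 0.98 ± 0.06 (SD, n = 3) in WT and 1.11 ± 0.19 in Adamts18-/- glands, with shifts of 0.27, -0.05 and 0.18 within mice. The ratio of Itga3 to Itga6, the 2 laminin-binding α subunits, moved in 1 direction. It was -1.68 ± 0.21 in WT and -1.95 ± 0.11 in Adamts18-/- glands, and it shifted by -0.22, -0.42 and -0.17 within the 3 mice.

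Dst, the gene of the spectraplakin dystonin, makes the epithelial isoform BPAG1e and larger isoforms of nerve and muscle, and the gene counts do not separate them. Dst was at 692, 772 and 484 CPM in the WT glands and at 572, 662 and 365 CPM in the Adamts18-/- glands. It was lower in each Adamts18-/- gland by log2 differences of -0.28, -0.22 and -0.41, and both glands of mouse 3 were below all others. The fitted value was -0.30 (SE 0.10, unadjusted p below 0.05 by edgeR), and the fold change of 0.811 lay just outside the fold threshold. Without mouse 2 the fitted value was -0.34 and Dst was called lower.

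Plec encodes plectin, a cytolinker of many tissues with particular weight in muscle and epithelium. It was at 348, 294 and 285 CPM in the WT glands and at 303, 391 and 272 CPM in the Adamts18-/- glands. The highest of the 6 values was the Adamts18-/- gland of mouse 2, and the log2 differences had both signs, at -0.20, 0.41 and -0.07. The fitted value was 0.05 (SE 0.15, unadjusted p above 0.05 by edgeR), and without mouse 2 it was -0.13. The log2 ratio of Plec to Dst counts shifted by 0.08, 0.63 and 0.34 within mice, toward Plec in each, from -1.05 ± 0.32 in WT to -0.70 ± 0.25 in Adamts18-/- glands.

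Cd151, the tetraspanin partner of α3β1 and α6β4, was at 264, 262 and 195 CPM in the WT glands and at 223, 270 and 154 CPM in the Adamts18-/- glands. As for Itgb4, mice 1 and 3 had the lower value in the Adamts18-/- gland (log2 differences of -0.24 and -0.35) and mouse 2 did not (0.04). The fitted value was -0.18 (SE 0.11, unadjusted p above 0.05 by edgeR).

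Counting all 9 genes, 8 had a negative fitted log2 fold change with scaling over all genes (3 with pan-epithelial and 4 with myoepithelial scaling), and their median was -0.30 against 0.00 over all genes tested. In 6 genes the Adamts18-/- gland was the lower one in all 3 mice, a pattern found in 12.7% of all genes tested. WT and Adamts18-/- ranges overlapped for each of the 9, while 2.63% of all genes had every Adamts18-/- value below every WT value.

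**Figure D2:**
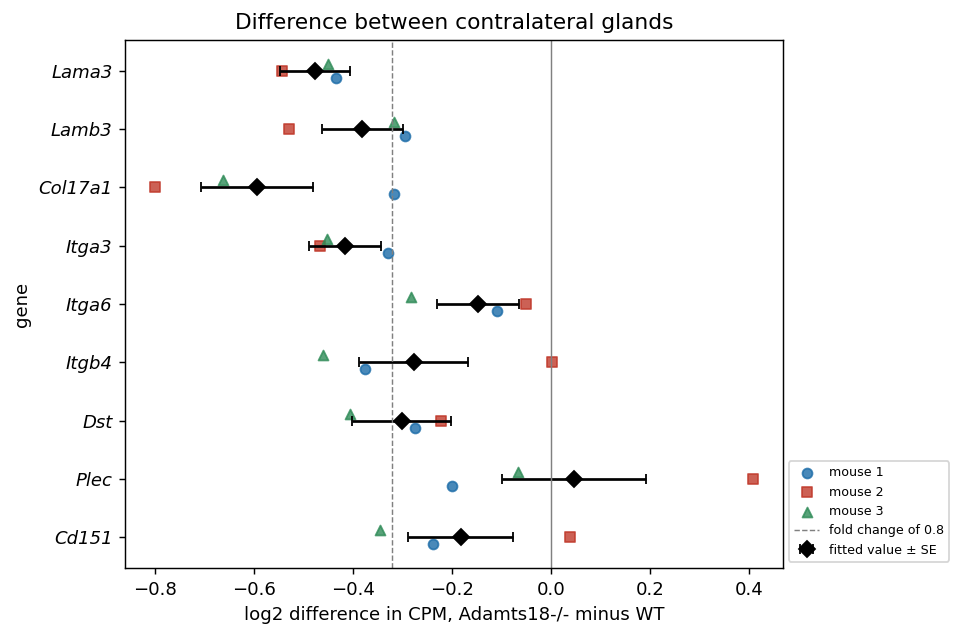
Log2 difference in CPM between the Adamts18-/- and the WT gland for each gene, as coloured points for the 3 mice and a black diamond with bars for the fitted value ± SE; the dashed line is a fold change of 0.8. The fitted values of Lama3, Lamb3, Col17a1 and Itga3 lie left of the dashed line, from -0.59 to -0.38 with scaling over all genes, and mouse 2 lies furthest left for these 4 and furthest right for Itga6, Itgb4, Dst, Plec and Cd151.

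Compared per kilobase of exon (GENCODE M21 exon unions), the levels of the 9 genes in WT glands were led by Cd151 at 87.7 ± 14.3 CPM per kilobase (SD, n = 3). Itga6 (20.0 ± 1.17), Plec (17.1 ± 1.88) and Dst (15.8 ± 3.61) came next and lay within each other's spread or close to it. Itgb4 (13.1 ± 1.06), Col17a1 (12.2 ± 5.45), Itga3 (9.97 ± 2.13) and Lamb3 (8.15 ± 2.67) followed, also without gaps beyond their spread between neighbours. Lama3 was the lowest at 5.07 ± 1.64 CPM per kilobase. The 4 genes called lower held the last 4 places. With the longest coding length as the divisor, Cd151 and Itga6 stayed first and second and Lamb3 and Lama3 stayed last, while Dst passed Plec and Itga3 passed Itgb4 and Col17a1.

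**Figure D3:**
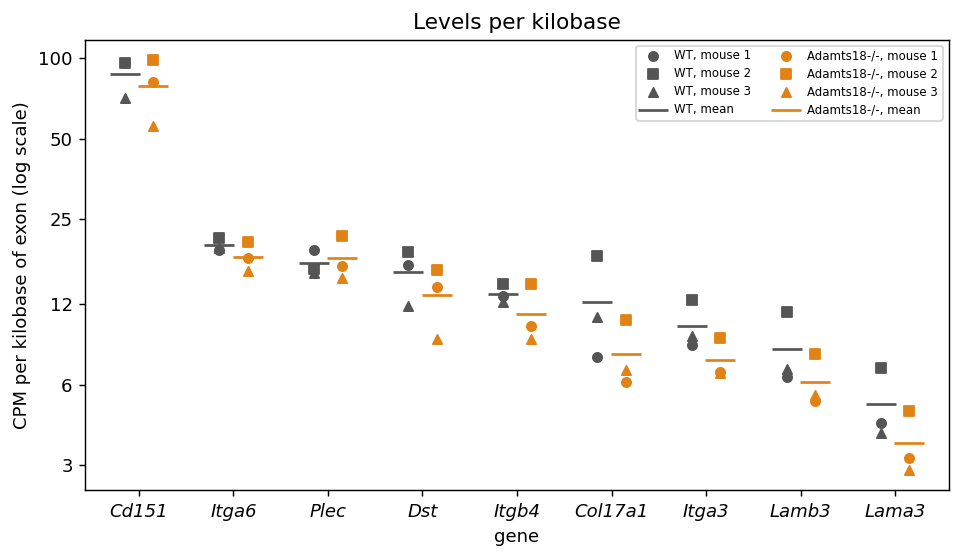
CPM per kilobase of exon on a log axis for the 9 genes, ordered by the WT mean, with a symbol for each mouse and a dash for the mean of each group. Cd151 stands apart at the top, and mouse 2 (squares) is the highest WT gland for the 5 genes at the lower end from Itgb4 to Lama3.

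Genes that work around the complex were taken as 5 lists. Of the 24 tested, 5 were called lower and 0 higher with scaling over all genes (0 lower without the pairing or with either marker scaling). Across all genes tested, 1.84% were called lower and 1.17% higher with that scaling. Of the 24, 22 had a negative fitted value, and their median log2 fold change was -0.16 against 0.00 over all genes. Without mouse 1, 2 or 3 the count called lower was 8, 2 or 3. The lists were chosen with results of these data known, so the count is a description. In the first list, of matrix partners and processing enzymes, 0 of 6 genes were called. Col7a1, the anchoring fibril collagen that binds laminin-332 from the stromal side, had a fitted log2 fold change of -0.09 (SE 0.07). Mmp2 and Htra1, the most abundant of that list and both secreted proteases, had -0.13 (SE 0.19) and -0.16 (SE 0.20).

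Among 6 integrin and tetraspanin partners 0 were called. Itgb1, the β1 subunit that pairs with α3 and α6, was at 442 to 505 CPM in WT and 410 to 505 CPM in Adamts18-/- glands, with a fitted log2 fold change of -0.05 (SE 0.09). Cd81, a tetraspanin, had -0.09 (SE 0.09). Cd9, another tetraspanin, was at 196, 216 and 221 CPM in WT and at 182, 174 and 153 CPM in Adamts18-/- glands, with no overlap, a pattern of 2.63% of all genes tested. Its fold change of 0.803 was just short of the threshold.

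The plakin and keratin lists held 4 of the 5 calls. Of 4 other plakins, the desmosomal Dsp was at 79.3, 130 and 95.8 CPM in WT and 67.8, 89.0 and 67.2 CPM in Adamts18-/- glands, with a fitted log2 fold change of -0.43 (SE 0.09). Evpl, a cornified envelope plakin at low level, had -0.60 (SE 0.20). Macf1, the actin and microtubule crosslinker and the most abundant of the list, had -0.14 and -0.11 in mice 1 and 2 and 0.83 in mouse 3.

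Among 4 basal keratins, the filaments that hemidesmosomes hold, Krt17 and Krt14 were called lower. Krt17 was at 39.4, 69.3 and 47.6 CPM in WT and 27.4, 53.3 and 25.2 CPM in Adamts18-/- glands, lower in each mouse, with a fitted value of -0.61 (SE 0.13). Krt14 had log2 differences of 0.02, -0.69 and -1.01 and a fitted value of -0.56 (SE 0.21). Its partner Krt5 had 0.14, -0.84 and -0.89 and a fitted value of -0.54 (SE 0.23, unadjusted p above 0.05), so in both keratins mouse 1 was not lower. Lama3, Lamb3, Col17a1 and Itga3 were lower in mouse 1 as well.

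Of 4 plaque adaptors and regulators, Trp63, the gene of p63, was called lower. It was at 30.5, 50.8 and 31.1 CPM in WT and 28.0, 36.0 and 22.2 CPM in Adamts18-/- glands, with a fitted log2 fold change of -0.37 (SE 0.11). Erbb2ip (Erbin), which binds β4 and BP180, had -0.07 (SE 0.10).

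Most markers of the epithelium also had negative fitted values, though not all lists followed the 9 genes mouse by mouse. All 10 myoepithelial markers had negative fitted values and 7 of them were called lower, with a median log2 fold change of -0.34. Of the 20 pan-epithelial markers 7 were called lower (median -0.39), and of the 11 luminal markers, 3 of them also pan-epithelial, 6 were called lower (median -0.43). The share called lower among all genes tested was 1.84%, and these lists too were chosen with earlier results known. The myoepithelial median differed by -0.29, -0.39 and -0.48 in mice 1, 2 and 3 and the pan-epithelial one by 0.07, -0.78 and -0.48. The luminal median differed by -0.15, -0.61 and -0.52, negative in all 3 mice like the myoepithelial one. The median of the 9 genes differed by -0.30, -0.22 and -0.41. No marker on these 3 lists was at 0 in all libraries. The values of the 9 genes were therefore also computed with the libraries scaled to the pan-epithelial or the myoepithelial markers in place of all genes. The pan-epithelial list includes Krt8, Krt18 and Krt19 of the luminal list, all called lower, so that scale in part follows luminal RNA.

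With the pan-epithelial markers as the scale the median of all genes moved by 0.41 on the log2 scale. Then 0.133% of all genes were called lower and 6.57% higher, and 0 of the 9 genes in either direction. Lama3 was at -0.07 (SE 0.37), Lamb3 at 0.02 (SE 0.37), Col17a1 at -0.19 (SE 0.37) and Itga3 at -0.01 (SE 0.37). With the myoepithelial markers as the scale the median of all genes moved by 0.37, 0.179% of genes were called lower and 42.6% higher. Lama3 was at -0.11 (SE 0.11), Lamb3 at -0.01 (SE 0.12), Col17a1 at -0.23 (SE 0.13) and Itga3 at -0.05 (SE 0.10), none of them called, and Plec, at 0.41 (SE 0.15), was called higher. Itga6, Itgb4, Dst and Cd151 turned from negative to positive under both marker scalings, and Lamb3 under the pan-epithelial one. A change of scale moves all genes by nearly the same amount, so the distance of each gene from the median of all genes is the same by construction and adds nothing to these values. 

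**Figure D4:**
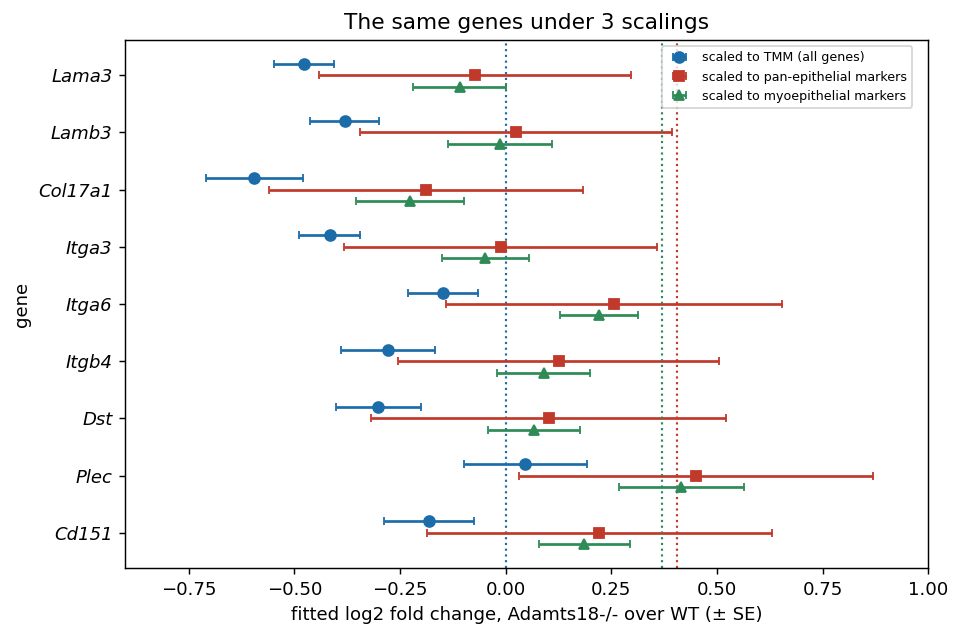
Fitted log2 fold change ± SE of the 9 genes with libraries scaled by TMM over all genes (blue circles), to pan-epithelial markers (red squares) or to myoepithelial markers (green triangles); dotted lines of the same colours are the medians of all genes tested, at 0.00, 0.41 and 0.37. Lama3, Lamb3, Col17a1 and Itga3 lie between -0.59 and -0.38 with TMM and between -0.23 and 0.02 with the marker scalings. The offset from the dotted lines is fixed by construction.

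Markers of other tissues differed between the glands of a mouse, in directions that were not the same in all 3 mice. The 7 Schwann cell markers, whose sum ran from 847 to 1230 CPM in WT and 532 to 1140 CPM in Adamts18-/- glands, had medians of -0.38, 0.48 and -0.62 in mice 1, 2 and 3. Plec, Itgb4 and Cd151 were likewise lowered in mice 1 and 3 and not in mouse 2. The 7 endothelial markers (546 to 957 CPM per library) had -0.22, 0.02 and -0.29, and the far more abundant adipocyte markers had -0.21, 0.18 and -0.38. The 8 skeletal muscle markers summed to 326, 944 and 3090 CPM in WT and to 12100, 12200 and 2090 CPM in Adamts18-/- glands, so muscle RNA was far higher in the Adamts18-/- glands of mice 1 and 2. Keratinocyte markers, which would mark skin, were near the floor, with 5 of 7 tested and a sum of 13.7 to 32.1 CPM. None of the tested markers of these lists was called in either direction, and their part in the values of the 9 genes was not tested.

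**Figure D5:**
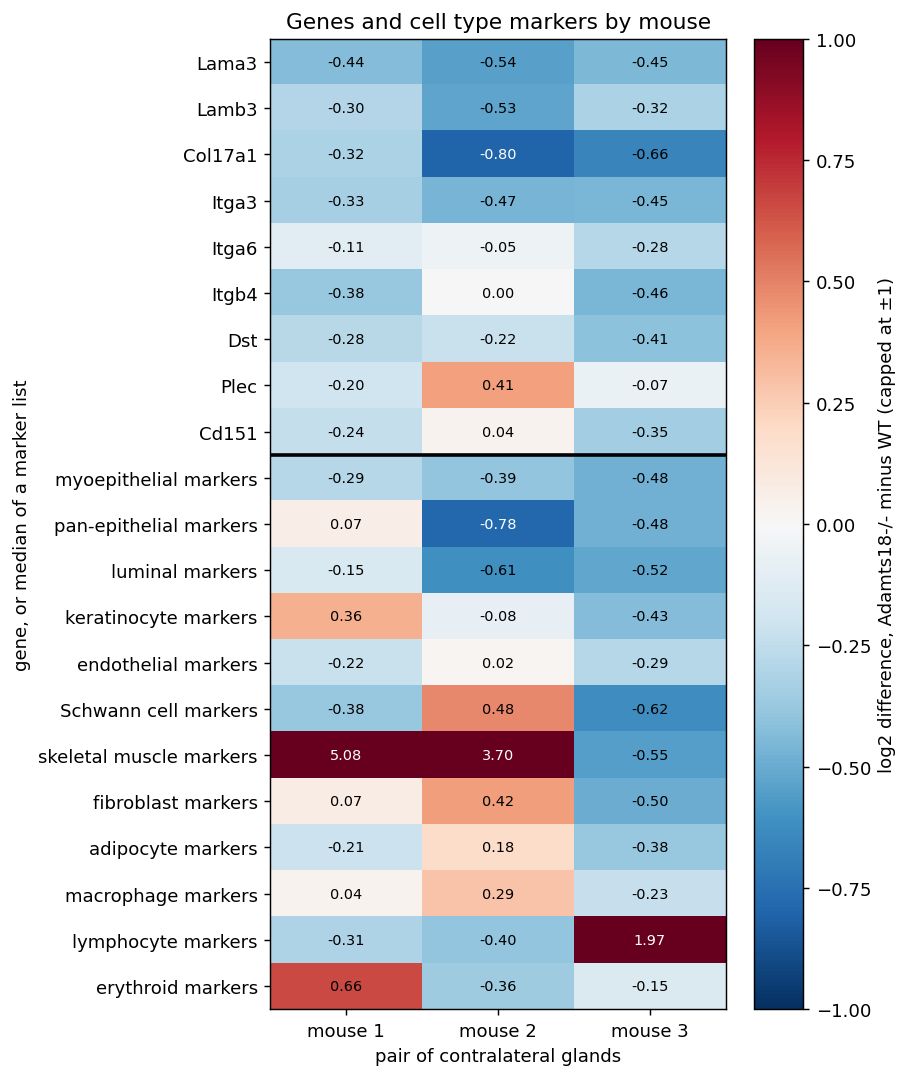
Log2 difference between the Adamts18-/- and the WT gland in each of 3 mice, for the 9 genes (above the line) and as the median of each cell type marker list (below it), with blue for lower and red for higher in the Adamts18-/- gland. The laminin chains, Col17a1, Itga3, Itga6 and Dst are blue throughout, as are the myoepithelial and luminal markers. Plec, Itgb4 and Cd151 are blue in mice 1 and 3 only, as are the Schwann cell, endothelial and adipocyte rows.

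Averaged over the 9 genes, the centred log2 CPM was 0.05, 0.44 and -0.03 in the WT glands and -0.24, 0.20 and -0.42 in the Adamts18-/- glands of mice 1, 2 and 3. Among 10705 genes with a mean of at least 10 CPM, those outside the complex with the most similar profile over the 6 libraries were X99384 and Stx3 (Pearson r = 0.996 each), Acta2 (0.991), Khdrbs3 (0.99) and Pdgfa (0.989). Acta2 encodes smooth muscle actin, used here as a myoepithelial marker, and Stx3 a syntaxin of vesicle fusion. Which cells gave the Acta2 reads in this bulk RNA was not tested. Within the complex, r with the same mean, which includes the gene itself, ran from 0.987 for Lama3 down to 0.439 for Plec. The 6 libraries share hosts in pairs and only 6 points enter each r.

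Reads of a few overlapping genes could enter these counts. In GENCODE M21, 7.66% of the Itgb4 exons lie antisense to B230344G16Rik (mean of 13 counts per library) and 7.04% of the Cd151 exons antisense to Gm10575 (57.3 counts), and 1.13% of the Plec exons overlap Parp10 on the same strand (3955 counts). Whether strand was used in counting was not given in the sources used here. The mean counts of the 3 genes were 5129, 13821 and 19100 per library.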

How the data were processed

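RNA was extracted with the miRNeasy Mini Kit and sequenced as single-end reads of 85 bp on an Illumina NextSeq. Per the labels the submitters used bcl2fastq 2.18, TopHat2 2.0.11 on the mouse build mm9, featureCounts 1.6.2 and edgeR. The annotation, the strand setting and the handling of multi-mapping reads were not given in the sources used here. The deposited table held raw counts per gene, which the authors had not normalized, with 0 columns of other samples.

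Counts were tested in edgeR 4.0.16 (R 4.3.3) by the quasi-likelihood test after filterByExpr, with TMM scaling and the mouse as a block, since the study removed the effect of the mouse. Benjamini-Hochberg adjustment ran over all 17345 genes tested. The pairing comes from the shared host. Same-numbered glands deviated together, with correlations of 0.512, 0.505 and 0.639 for mice 1 to 3. Nothing in the counts showed a library deposited more than once. Log2 CPM used a prior count of 2. DESeq2 1.42.0 and limma-voom (limma 3.58.1), 5 other scalings, 2 other filters, the fit without the block and each mouse left out were alternatives. The scripts were tested on simulated data.

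The 9 genes, the gene lists and the marker lists were chosen with earlier results of these data known. Named genes were the 9, each pathway gene past the thresholds, the 2 most abundant of each pathway list and the 5 most similar in profile. Cd9 and Col7a1 were added after their values were seen. Exon and coding lengths came from GENCODE M21 and promoter windows from RefSeq (GRCm38.p6), not from mm9.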

Additional observations from a re-analysis of the deposited data

How the results depend on the processing

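The count of 4 genes called lower stayed at 4 under DESeq2, limma-voom, RLE and upper quartile scaling and both other filters, and was 5 with library size scaling, where Dst joined. It fell to 0 without the replicate block (Lama3 -0.49, Lamb3 -0.41, Col17a1 -0.65 and Itga3 -0.42 with unadjusted p above 0.05), and to 0 with pan-epithelial and 0 with myoepithelial scaling. The block tests the paired glands of 1 host and the fit without it sets the spread between hosts against the genotypes. Leaving out 1 mouse gave 4 to 5 genes. Myoepithelial scaling called 1 gene higher (Plec). DESeq2 gave an adjusted p below 0.05 to 3 genes and the other alternatives to 0. The adjusted p over the alternatives ranged from 0.00601 to 1 for Lama3, 0.0169 to 1 for Col17a1 and 0.0414 to 1 for Itga3.

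Signs turned under pan-epithelial scaling for Lamb3 (0.0235), Itga6 (0.256), Itgb4 (0.125), Dst (0.102) and Cd151 (0.221), under myoepithelial scaling for Itga6 (0.22), Itgb4 (0.0903), Dst (0.0667) and Cd151 (0.186), and without replicate 2 for Plec (range over the mice left out -0.134 to 0.169). The causes were not tested. Of the single-gene values, 91 kept direction and call, 12 lost a call, 4 gained one and 10 changed sign.

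Of the 24 surrounding genes 5 were called lower in the reported fit, 0 without the replicate block, 0 with pan-epithelial and 0 with myoepithelial scaling, and 2 to 8 with 1 mouse left out. Myoepithelial scaling called 2 of them higher. Among all genes, the 319 called lower became 125 without the block, 23 and 31 with pan-epithelial and myoepithelial scaling and 481 without mouse 1. The 203 called higher became 340 by DESeq2, 345 by limma-voom, 352 without a filter, 1140 and 7397 with the marker scalings, and 319 and 581 without mouse 2 and mouse 3. Without mouse 3 the genes with an adjusted p below 0.05 by edgeR went from 0 to 268 (lowest 0.00308), and with pan-epithelial scaling to 263. At 53875123 or more counts per library none of the 9 genes was near the low-count filter.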
